A study of Mus musculus with 4 samples.

Results

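The genes examined here are 10 pro-apoptotic members of the BCL-2 family, chosen by name with earlier results of these data known. They comprise 7 genes for BH3-only proteins (Bmf, Bcl2l11, Bbc3, Pmaip1, Bid, Bad and Bik) and 3 genes for multidomain proteins (Bax, Bak1 and Bok). They stand among the 16591 genes of a table of RNA sequencing counts from mouse cells, in which 9 of the 10 had a row and 8 passed a filter on low counts. Bok had no row and was not analysed here.

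The libraries came from a JQ1-resistant line (JQ1R, 2 libraries) and a JQ1-sensitive line (JQ1S, 2 libraries) of Eμ-Myc cells on the C57BL/6 strain. Eμ-Myc cells are B-lymphoma cells in which an immunoglobulin heavy-chain enhancer drives Myc in the B lineage, and both lines carry that transgene. JQ1 blocks the bromodomains of BET proteins, readers of acetylated histones that help genes to be transcribed. The protocols describe early-passage cells in culture medium and name no drug at harvest, so both lines were compared without stated exposure to JQ1. Each kind is represented by a single line, so resistance and the other ways in which these lines differ cannot be told apart, and "resistant" and "sensitive" below mean these lines. Nothing says that the libraries of a line came from separate cultures, so p-values measure only the spread between these libraries, which may be technical.

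The resistant libraries held 10928239 and 11809635 counts, against 13048103 and 10346007 in the sensitive libraries. All 10 B-cell markers examined were present, with a summed level of 4584 to 4659 CPM in resistant and 4508 to 4658 CPM in sensitive libraries (counts scaled to a common library total, after a correction for composition). Among them Cd22, which encodes an inhibitory receptor of B cells, was called higher (log2 change 0.28), whereas Cd72 (0.19) and Ptprc (0.17) were not. Markers of other cells were low. T-cell markers summed to at most 0.0842 CPM in resistant and 0.231 CPM in sensitive libraries, with no row for 6 of the 7, Cd3e and Cd4 among them. Myeloid markers summed to 1.94 to 2.29 CPM in resistant and 1.17 to 1.46 CPM in sensitive libraries, mostly from Itgam, and NK markers to at most 1.01 CPM in resistant and 0.680 CPM in sensitive libraries. Erythroid markers reached at most 0.549 CPM in resistant and 0.680 CPM in sensitive libraries. Stromal and endothelial markers summed to at most 1.56 CPM in resistant and 1.39 CPM in sensitive libraries, all of it from Cdh5. The part of these cells in the differences below was not tested.

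BH3-only proteins are the sensors of mitochondrial apoptosis. Each carries a short helix, the BH3 domain, that fits a groove on anti-apoptotic relatives such as BCL-2 and MCL-1 and blocks them, and some, BIM and BID among them, also activate BAX and BAK directly. BAX and BAK then form pores in the outer mitochondrial membrane, cytochrome c escapes and caspases are activated. In Eμ-Myc mice this pathway restrains the lymphoma, since loss of Bcl2l11 or of Bbc3 is known to hasten it.

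The BH3 domain is what unites these genes, so the coding bases of its core are shown for 7 of the 8 tested members; that of Pmaip1 is not shown here. They were read from GENCODE M21 transcripts on GRCm38, 5′ to 3′ on the coding strand. Capitals mark the codon for the conserved leucine and, after 3 further codons, the codons for a small residue (glycine, alanine or serine) and for aspartate. Each reading frame held 1 match to this pattern.
Bmf: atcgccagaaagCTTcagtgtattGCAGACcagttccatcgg
Bcl2l11: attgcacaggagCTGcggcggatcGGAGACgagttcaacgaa
Bbc3: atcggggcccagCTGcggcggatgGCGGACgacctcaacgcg
Bid: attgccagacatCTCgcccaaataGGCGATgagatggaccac
Bad: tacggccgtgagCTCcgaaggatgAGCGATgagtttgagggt
Bax: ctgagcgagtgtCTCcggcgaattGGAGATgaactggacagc
Bak1: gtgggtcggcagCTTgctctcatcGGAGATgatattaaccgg
Over these 42 bases Bbc3 had 28 identical to Bcl2l11 and Bmf had 24, and the other 4 had 22 or 23. The Bmf stretch lies on the minus strand at chr2:118545097-118545138 and the Bcl2l11 stretch on the plus strand at chr2:128147138-128147179. That of Bbc3 is at chr7:16313761-16313802 (plus), of Bid at chr6:120897286-120897327 (minus) and of Bad at chr19:6950780-6950821 (plus). Bax has it at chr7:45465994-45466035 and Bak1 at chr17:27022528-27022569, both on the minus strand. Not every transcript holds the core. It was found in 2 of 2 coding transcripts of Bmf and 4 of 5 of Bcl2l11, but in 1 of 3 of Bbc3 and 1 of 2 of Bid. These are coding transcripts with an annotated start, whether or not their end is annotated. Counts per gene merge these transcripts, so forms with and without the core were not told apart.

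The comparison asks whether the genes that execute apoptosis differ between a line resistant and a line sensitive to BET inhibition, without stated drug exposure. Of the 8 tested members, 1 rose in resistant cells, Bmf, and 0 fell (12.5% called, against 3.73% of all 11945 tested genes, with 2.2% called higher and 1.52% lower). The median log2 change of the 8 was 0.07, against 0.0033 for all tested genes. For the other 7 the 95% interval of the change lay within 1.5-fold in either direction. For 4 of the 8 (50%) the resistant and sensitive libraries did not overlap, 3 of them higher and 1 lower, which was near the background of 47.3% of all tested genes (24.1% higher and 23.2% lower). Before adjustment, 4 of the 8 had a p below 0.05 in edgeR, against 16.9% of tested genes.

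**Figure D1:**
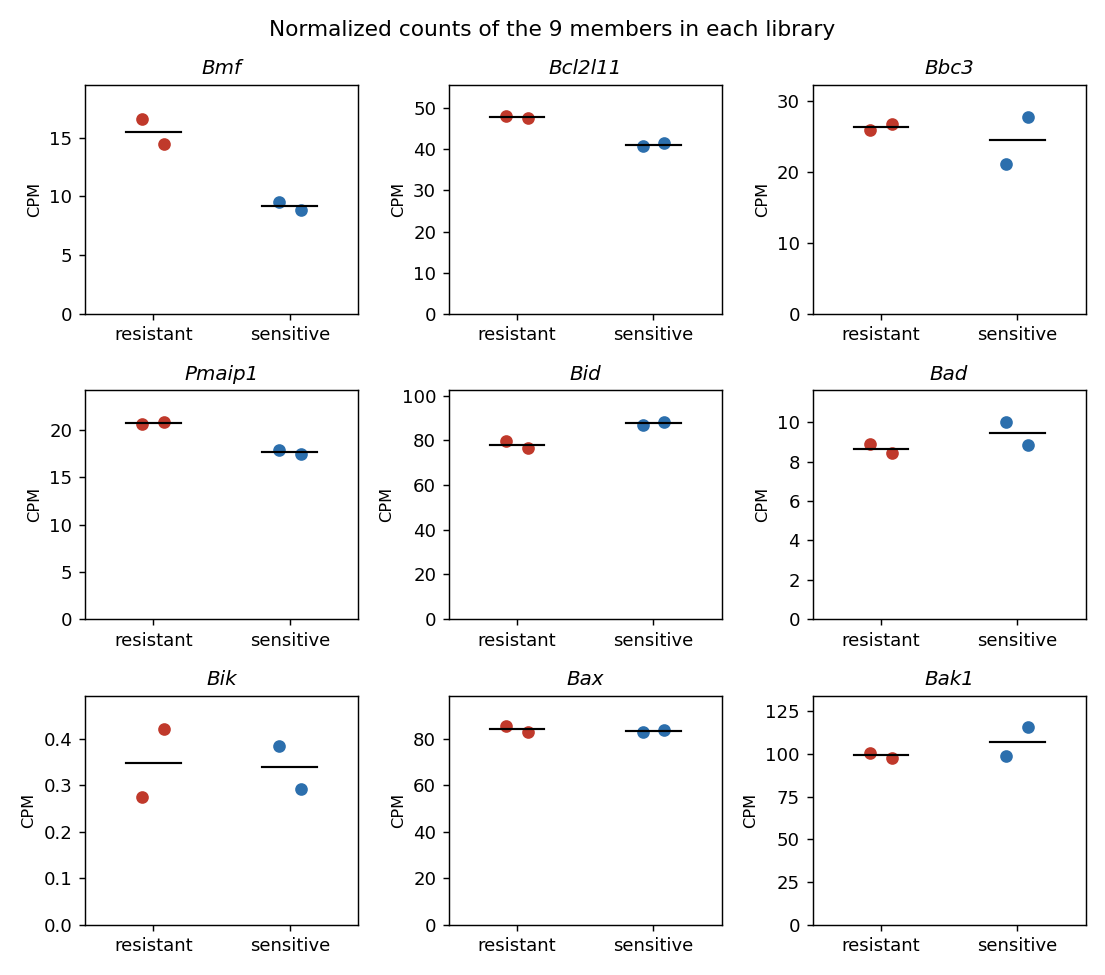
Normalized counts (CPM, y axis from 0) of the 9 members with a row, 1 panel per gene. Each point is a library, with 2 per line and a bar at their mean; the Bmf points of resistant cells, at 16.6 and 14.5 CPM, stand above those of sensitive cells, at 9.48 and 8.84 CPM.

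Bmf encodes a BH3-only protein that is held on the cytoskeleton through a dynein light chain and is released by stress. Its counts were 181 and 172 in resistant libraries, against 123 and 91 in sensitive libraries, which corresponded to 16.6 and 14.5 CPM against 9.48 and 8.84 CPM. Both resistant libraries stood above both sensitive ones. The mean was 15.5 ± 1.48 CPM in resistant and 9.16 ± 0.45 CPM in sensitive cells (SD, n = 2 each), a 1.68-fold difference (95% interval 1.39 to 2.05). On the log2 scale this was 0.75 ± 0.13 (SE), with an adjusted p of 0.00269 (edgeR). The log2 difference within the resistant pair was 0.19 and within the sensitive pair 0.10, near the 0.15 and 0.20 (SD) that counting error alone gives at these counts. Bmf lies on chromosome 2 from 118528757 to 118549687 on the minus strand (GRCm38), and none of its exonic bases is shared with another annotated gene. The call held when any library was left out, with log2 changes of 0.65 to 0.85. In those fits 2.45% of genes were called without resistant replicate 1, 2.21% without resistant replicate 2, 11.3% without sensitive replicate 1 and 9.68% without sensitive replicate 2. DESeq2 called Bmf on the filtered genes (adjusted p = 0.0390, with 1.74% of genes called) but not on all genes with its own filter (adjusted p = 0.0626, with 1.67% called).

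The genes on either side of Bmf were not called. Srp14, a subunit of the signal recognition particle whose start is at -70 kb from that of Bmf (toward lower coordinates), had a log2 change of -0.01 ± 0.06 (SE). Bub1b, a spindle checkpoint kinase gene at 48.5 kb on the other side, had 0.01 ± 0.05. Further out, Eif2ak4 (-0.18, adjusted p = 0.140), Ankrd63 (0.27, adjusted p = 0.816) and Plcb2 (0.25, adjusted p = 0.467) did not pass the test in edgeR. Gpr176, an orphan receptor gene at -176.3 kb, fell (log2 change -2.38 ± 0.33, adjusted p = 2.84e-04 in edgeR) at a low level, 0.699 CPM in resistant and 3.74 CPM in sensitive cells. Over the 945 tested genes of chromosome 2 the median log2 change was -0.0027.

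**Figure D2:**
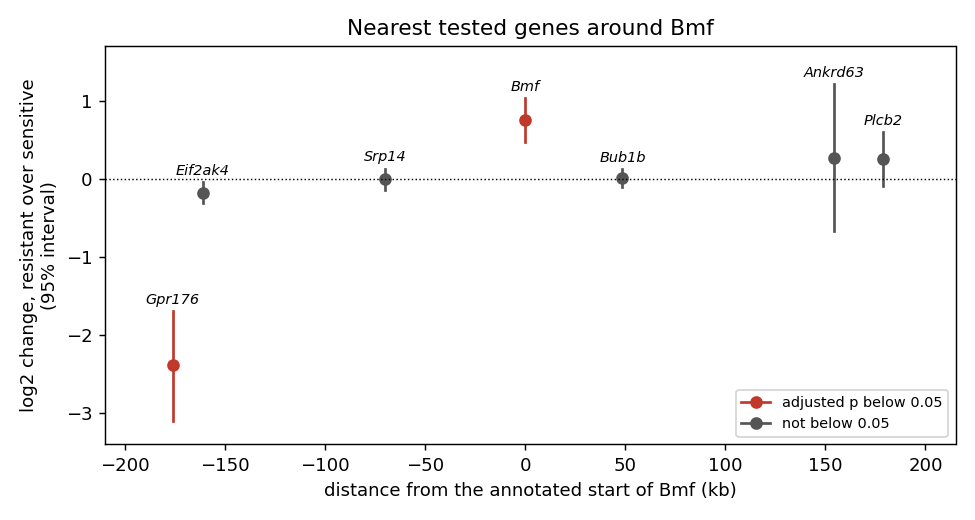
Log2 change (y axis, resistant over sensitive, with 95% interval) of Bmf and the 3 nearest tested genes on each side, by distance of their annotated starts from that of Bmf in kb (x axis). Bmf at 0.75 stands between Srp14 at -0.01 and Bub1b at 0.01; red marks an adjusted p below 0.05 in edgeR.

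Bcl2l11 encodes BIM, the BH3-only protein that binds every pro-survival relative tightly. It had 48.1 and 47.6 CPM in resistant libraries, against 40.8 and 41.5 CPM in sensitive libraries. The lines did not overlap, and the libraries of each line lay within 0.03 of each other on the log2 scale. The log2 change was 0.22 ± 0.08 (SE, adjusted p = 0.141 in edgeR), and the 95% interval of the fold was 1.04 to 1.30. It was called in none of 12 other settings, in which the log2 change was 0.21 to 0.23 and the adjusted p 0.0596 to 0.883. On chromosome 2, Bcl2l11 runs from 128126038 to 128162547 on the plus strand.

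Pmaip1, which encodes the MCL-1 antagonist NOXA, showed a like pattern, with 20.7 and 20.9 CPM in resistant libraries against 17.9 and 17.5 CPM in sensitive libraries. Again the lines did not overlap, with a log2 change of 0.23 ± 0.10 (SE, adjusted p = 0.268 in edgeR), and the fold interval was 1.01 to 1.37. Bbc3, which encodes PUMA, had 25.9 and 26.8 CPM in resistant libraries against 21.2 and 27.8 CPM in sensitive libraries. Here the resistant values fell between the sensitive ones, which lay 0.39 apart on the log2 scale, beyond the 0.12 (SD) of counting error. The Bbc3 log2 change was 0.12 ± 0.12 (SE, adjusted p = 0.658 in edgeR). It was -0.08 without sensitive replicate 1, and 0.31 and called (adjusted p = 0.0481) without sensitive replicate 2, where a single sensitive library is assumed to vary like the resistant pair and 9.68% of all tested genes were called.

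Bid is linked to death receptors, because caspase-8 cleaves its protein into the active form. It had 79.6 and 76.5 CPM in resistant libraries, against 86.9 and 88.3 CPM in sensitive libraries. Among the members it alone had both resistant libraries below both sensitive ones, with a log2 change of -0.17 ± 0.07 (SE), an adjusted p of 0.193 (edgeR) and a fold of 0.891 (95% interval 0.810 to 0.980). Of its exonic bases 17.7% overlap those of Bcl2l13, another BCL-2 relative, on the other strand. The strand setting is not given, so how reads from these shared bases were counted is not known. Bcl2l13 stood at 84.7 and 84.5 CPM in resistant and 88.5 and 85.0 CPM in sensitive libraries (log2 change -0.04).

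Bad, whose protein is kept inactive by survival kinases and 14-3-3 proteins, had 8.88 and 8.42 CPM in resistant libraries against 10.0 and 8.84 CPM in sensitive libraries. The resistant values lay close to the lower sensitive one, with a log2 change of -0.13 ± 0.15 (SE, adjusted p = 0.700 in edgeR) and a fold interval of 0.735 to 1.13. Of its exonic bases 20.5% overlap Gpr137 on the other strand, which stood at 5.77 and 6.31 CPM in resistant and 5.16 and 5.73 CPM in sensitive libraries. Bik was close to absent, with 3 and 5 counts in resistant and 5 and 3 counts in sensitive libraries, too few for the filter. The summed counts, 8 in each line, gave a ratio of 1.02 with a counting interval of 0.334 to 3.12. At this depth a 3-fold rise in resistant cells was therefore not excluded.

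Bax and Bak1, the pore-forming effectors, did not pass the test. Bax had 85.6 and 82.8 CPM in resistant libraries, against 82.9 and 84.1 CPM in sensitive libraries. The values were interleaved, and the fold of 1.01 had a 95% interval of 0.917 to 1.11 (log2 change 0.01 ± 0.06 SE, adjusted p = 0.950 in edgeR, turning to -0.01 without resistant replicate 1). Of Bax exonic bases 12.2% are shared with Gm45808 on the same strand, which has no row. Bak1 had 100.3 and 97.8 CPM in resistant libraries against 98.6 and 115.5 CPM in sensitive libraries.

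Sensitive replicate 2 of Bak1 stood apart from the other 3 libraries, 0.23 on the log2 scale above its pair, against 0.06 (SD) of counting error. The log2 change was -0.11 ± 0.07 (SE, adjusted p = 0.495 in edgeR). It was -0.22 and called (adjusted p = 0.00780) without sensitive replicate 1, where 11.3% of tested genes were called, and 0.0042 without sensitive replicate 2. On the other strand Ggnbp1 overlaps 18.2% of the exonic bases of Bak1, and it stood at 13.7 and 14.1 CPM in resistant and 17.8 and 17.0 CPM in sensitive libraries (log2 change -0.32, adjusted p = 0.146).

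**Figure D3:**
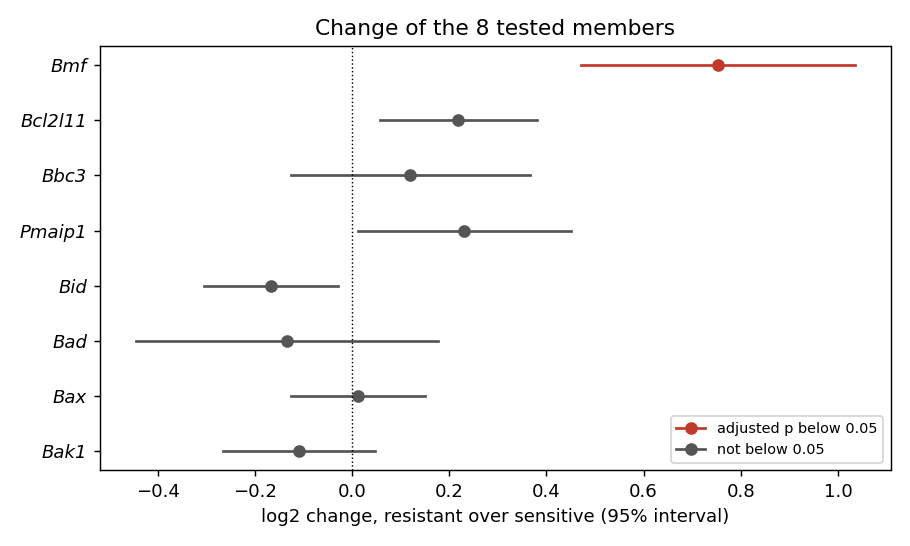
Log2 change of the 8 tested members (x axis, resistant over sensitive) with 95% intervals from edgeR, BH3-only genes above Bax and Bak1. Bmf at 0.75 is the only member with an adjusted p below 0.05, and the intervals of Bcl2l11, Pmaip1 and Bid also leave out 0.

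Per kilobase of exon, the members spanned a wide range, and their order was the same in both lines. Bax was highest, at 54.3 and 52.6 CPM per kilobase in resistant and 52.6 and 53.3 CPM per kilobase in sensitive libraries, which placed it at percentile 90.7 of all tested genes. Bak1 followed at 41.2 ± 0.74 in resistant and 44.5 ± 4.96 CPM per kilobase in sensitive cells (SD, n = 2 each), then Bid at 22.0 ± 0.62 in resistant and 24.7 ± 0.28 CPM per kilobase in sensitive cells. Bbc3 stood at 12.4 ± 0.29 in resistant and 11.5 ± 2.20 CPM per kilobase in sensitive cells, and Pmaip1 at 7.61 ± 0.05 in resistant and 6.47 ± 0.10 in sensitive cells. Bcl2l11 had 5.96 ± 0.04 in resistant and 5.12 ± 0.06 CPM per kilobase in sensitive cells. Bad had 3.38 ± 0.13 in resistant and 3.69 ± 0.33 CPM per kilobase in sensitive cells. Bmf, with 2.96 ± 0.28 in resistant and 1.74 ± 0.09 CPM per kilobase in sensitive cells, was the lowest tested member, at percentile 25.7. Within a line, the libraries of neighbours in this order did not overlap. With the longest transcript as the length, Bcl2l11 (9.50 in resistant and 8.17 CPM per kilobase in sensitive cells) came above Pmaip1 (7.62 in resistant and 6.49 in sensitive cells), and Pmaip1 overlapped Bad in sensitive cells.

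**Figure D4:**
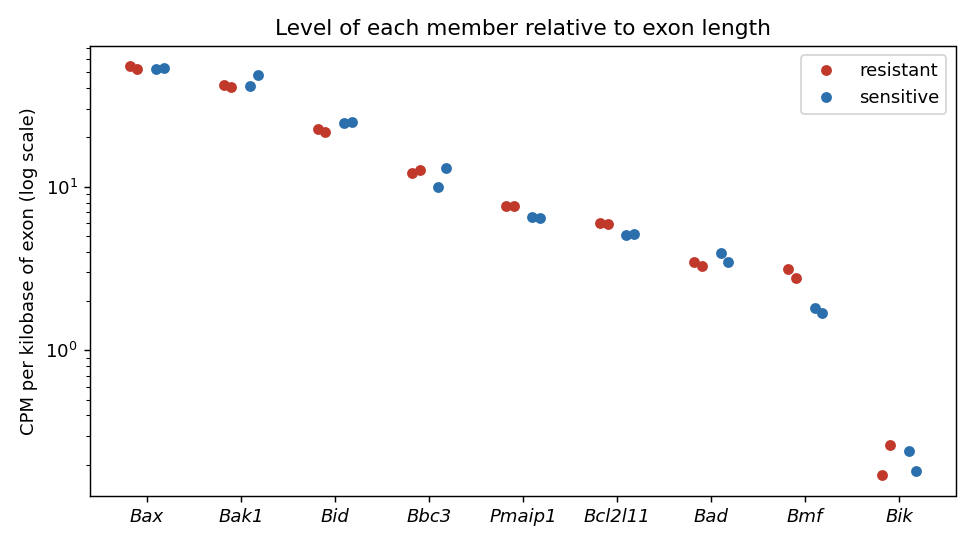
Level of each member in CPM per kilobase of exon (log y axis), ordered by the resistant mean, with 1 point per library and resistant points to the left of sensitive ones. Bax at 53.4 and Bak1 at 41.2 in resistant cells lie above all BH3-only genes, and Bik is lowest at 0.219.

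Summed per kilobase of exon, the BH3-only genes came to 55.0 and 54.0 CPM per kilobase in resistant libraries, against 52.1 and 54.9 in sensitive libraries, and the effectors to 96.0 and 93.2 in resistant libraries against 93.6 and 101.3 in sensitive libraries. These sums overlapped between the lines. Of the BH3-only sum, Bmf took 5.74% and 5.10% in resistant libraries against 3.47% and 3.07% in sensitive libraries, and Bid took 40.8% and 39.9% in resistant libraries against 47.0% and 45.4% in sensitive libraries.

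Of the anti-apoptotic genes that these proteins bind, Bcl2 had 11.5 and 12.4 CPM per kilobase in resistant libraries against 1.96 and 2.00 in sensitive libraries, so that the ratio of Bcl2l11 to Bcl2 was 0.520 and 0.480 in resistant libraries, against 2.59 and 2.59 in sensitive libraries. The ratio of Bmf to Bcl2 was 0.274 and 0.223 in resistant libraries against 0.920 and 0.844 in sensitive libraries. Over sums the difference was much smaller. The BH3-only sum over that of the 4 anti-apoptotic genes with a row was 0.615 and 0.576 in resistant libraries against 0.631 and 0.690 in sensitive libraries, where both resistant values lay below both sensitive ones.

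In full, 4 of 8 listed anti-apoptotic genes were tested, of which 1 rose and 1 fell in edgeR, against 3.73% called of all tested genes. Bcl2 rose (log2 change 2.59). Bcl2l2 fell (-3.25, adjusted p = 0.00136), but with only 2 and 2 counts in resistant against 24 and 17 counts in sensitive libraries, and its call was lost with DESeq2 on all genes with its own filter (adjusted p = 0.0574). Mcl1, the most abundant of the 4 by CPM, had 257.9 and 270.0 CPM in resistant against 265.0 and 252.0 CPM in sensitive libraries. The lines overlapped, with a log2 change of 0.03 ± 0.06 (SE, adjusted p = 0.848 in edgeR). Bcl2l1 did not pass the test either (-0.30, adjusted p = 0.313, or -0.51 and called at 0.00995 without sensitive replicate 1). Among 7 tested relatives of the family outside these lists, 1 rose (against 2.2% of all tested genes), the mitophagy gene Bnip3 (0.67). Its sensitive libraries stood at 43.6 and 74.3 CPM. Leaving out sensitive replicate 1 gave a log2 change of 0.32 and leaving out sensitive replicate 2 gave 1.09, while DESeq2 did not call it (adjusted p = 0.829). Bnip3l (0.26, adjusted p = 0.0581) and Bnip1 (0.17, adjusted p = 0.390) did not pass the test in edgeR, although Bnip3l was called with a replicate block (adjusted p = 0.0139), with no filter (0.0400) and without sensitive replicate 2 (0.38).

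Genes that act upstream of the BH3-only group were listed as well. Of 16 tested transcription factors listed as regulators of its members, 1 rose and 0 fell (against 3.73% called of all tested genes), with a median log2 change of -0.06. In edgeR, 8 of the 16 had an unadjusted p below 0.05, against 16.9% of all tested genes. The gene that rose was Myb, a factor of blood progenitors (436 ± 1.56 CPM in resistant and 370 ± 34.2 CPM in sensitive cells, log2 change 0.24, adjusted p = 0.0464). Its call was lost in DESeq2 (adjusted p = 0.0851) and without either resistant library (0.240 and 0.312). Trp53, which encodes the p53 activator of Bbc3, Pmaip1 and Bax, had 210.7 and 209.5 CPM in resistant against 233.8 and 237.7 CPM in sensitive libraries. These did not overlap, but the log2 change of -0.17 did not pass the test in edgeR (adjusted p = 0.125), although it was called when sensitive replicate 1 (-0.18) or 2 (-0.16) was left out. The glucocorticoid receptor gene Nr3c1 had a log2 change of 0.22 (adjusted p = 0.151, or 0.0149 without sensitive replicate 2). In this list 3 genes were called without sensitive replicate 1, where 11.3% of all tested genes were called, and 5 without sensitive replicate 2, where 9.68% were.

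Targets of p53 outside the family numbered 14 tested genes, of which 1 rose and 0 fell, against 3.73% called of all tested genes (median log2 change 0.10). That gene was Trp53inp1, a stress protein gene (log2 change 0.26, 239 ± 11.8 CPM in resistant and 199 ± 1.24 CPM in sensitive cells), and its call was lost without resistant replicate 1 (adjusted p = 0.0623) and without resistant replicate 2 (0.459). The cyclin gene Ccng1 (0.23, adjusted p = 0.0676) and the sestrin gene Sesn1 (0.23, adjusted p = 0.199) did not pass in edgeR. Without adjustment, 5 of the 14 had a p below 0.05 in edgeR, against 16.9% of all tested genes. Leaving out sensitive replicate 1 brought calls of Ccng1 (0.26) and Sesn1 (0.33), and leaving out sensitive replicate 2 a call of Ccng1 (0.20), with 4 and 3 genes of the list called in those fits, against 11.3% and 9.68% of all tested genes.

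FOXO factors are known to activate Bcl2l11 and Bbc3, and 15 of their listed targets outside the family were tested. Of these, 3 rose and 2 fell in edgeR (33.3% called, against 3.73% of all tested genes), with a median log2 change of 0.09. Unadjusted p-values below 0.05 (edgeR) were held by 8 of the 15, against 16.9% of all tested genes. The list was chosen with earlier results of these data known, so these shares only describe it. Those that rose included Ccng2, a cyclin of arrested cells (62.4 ± 1.89 CPM in resistant and 43.1 ± 3.33 CPM in sensitive cells, log2 change 0.54) and the cell-cycle inhibitor Cdkn1b (0.38). The interleukin-7 receptor Il7r (-0.38) and the catalase Cat (-0.30) fell. Ccng2 was called in all 12 other settings. Cdkn1b lost its call without resistant replicate 2 (adjusted p = 0.159) and Il7r without resistant replicate 1 (0.0792). Cat lost its call in DESeq2 (0.0654) and without resistant replicate 1 (0.229) or 2 (0.0997).

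Of 27 tested genes for proteins that bind or modify the members, 0 were called, whether by edgeR, by DESeq2 or by limma-voom, and 4 had a p below 0.05 in edgeR before adjustment, against 16.9% of all tested genes. Their median log2 change was -0.07. Dynll2, which encodes the dynein light chain that tethers BMF, had 58.9 and 62.8 CPM in resistant libraries against 71.8 and 71.6 CPM in sensitive libraries. Both resistant libraries lay below both sensitive ones, and the log2 change was -0.24 ± 0.07 (SE, adjusted p = 0.0796 in edgeR). It was called when sensitive replicate 1 (adjusted p = 0.0214) or sensitive replicate 2 (0.0138) was left out. Rps6ka1, a kinase gene of the family that phosphorylates BAD, had -0.21 (adjusted p = 0.119) and the calcium channel Itpr1, a partner of BOK, had 0.21 (adjusted p = 0.155). Without sensitive replicate 2, 6 genes of the list were called, Rps6ka1 and Itpr1 among them (against 9.68% of all tested genes), and without sensitive replicate 1 there were 3 (against 11.3%).

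Downstream of BAX and BAK, 0 of 10 tested genes of cytochrome c release and the apoptosome were called, whether by edgeR, by DESeq2 or by limma-voom, and 2 had a p below 0.05 in edgeR before adjustment, against 16.9% of all tested genes. Their median log2 change was 0.06. The mitochondrial flavoprotein Aifm1 had a log2 change of -0.26 (adjusted p = 0.0550), and it was called when sensitive replicate 1 (-0.24) or 2 (-0.28) was left out.

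Across the 12 other settings, Bmf kept the largest log2 change of the 8 members, at 0.65 or above in each. All genes tested were called at 3.68% with DESeq2 scaling factors, 3.56% with library size only, 3.57% with upper-quartile factors, 2.94% with no filter and 4.98% with a replicate block. In the bulk RNA of a culture, a lower level per cell and fewer cells that express a gene cannot be told apart, which holds for every value given here.

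**Figure D5:**
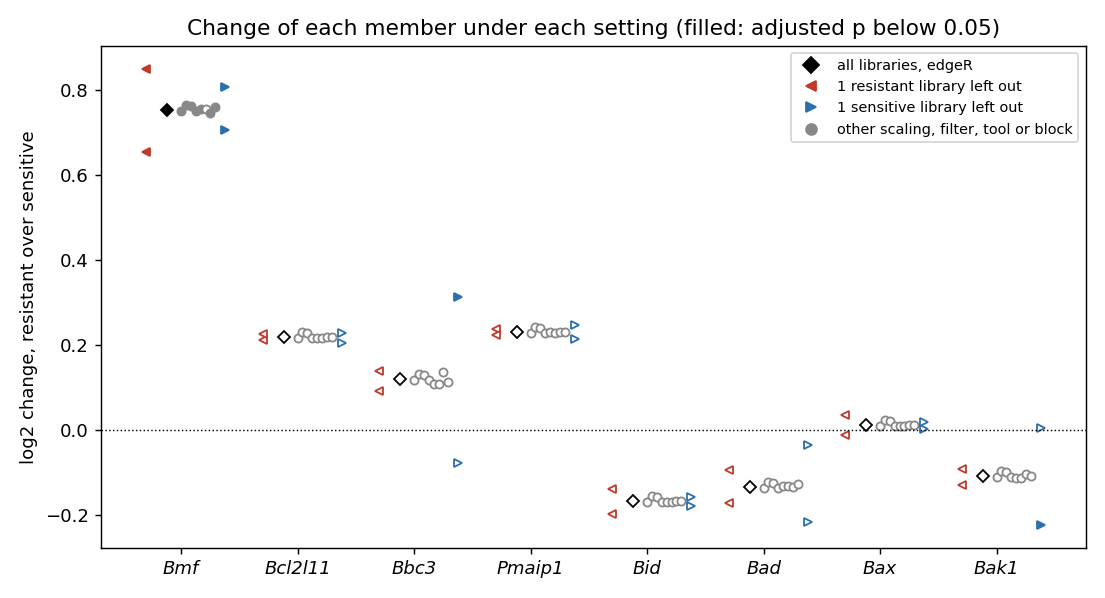
Log2 change of the 8 tested members (y axis, resistant over sensitive) with all libraries, with 1 library left out and under other scalings, filters, tools or a replicate block. Filled symbols have an adjusted p below 0.05; Bmf stays between 0.65 and 0.85, and leaving out a sensitive library spreads Bbc3 from -0.08 to 0.31 and Bak1 from -0.22 to 0.0042.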

How the data were processed

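The authors deposited read counts per Ensembl gene, not normalized, in 1 table of 16591 genes with at least 4 summed counts each and 0 unused columns. Per the submitters' processing notes, the tools included HTSeq, TopHat, Bowtie2, limma, FastQC and cutadapt 1.7, on GRCm38 (mm10). Not given in the sources used here are the strand setting and the annotation release. Symbols and positions come from GENCODE M21 (GRCm38), which matched 16393 identifiers.

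Counts were fitted with edgeR 4.0.16 (R 4.3.3) by its quasi-likelihood test, with TMM factors, group alone and the filterByExpr filter (minimum count 10, minimum total 15), which left 11945 genes, and p-values were adjusted by Benjamini-Hochberg with a threshold of 0.05. Standard errors and 95% intervals derive from the F statistic. Levels per kilobase use the union of exons. An exact permutation test of 2 against 2 libraries cannot go below 0.333 and was not used. Alternatives were 3 scalings, no filter, DESeq2 1.42.0, limma-voom (3.58.1), a replicate block and leaving out each library. DESeq2 on all genes was added after seeing the data. The code was tested on simulated data. With 10346007 to 13048103 counts per library, 1 count is 0.0771 to 0.0972 CPM, and intervals on single counts cover counting error only.

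The members and the 7 pathway lists were chosen with earlier results of these data known. The text names all 10 members, every called gene and the 3 smallest p-values of each list, and the 3 nearest tested genes on each side of a called member; genes on the other strand were named after their overlap was seen. A few genes under this rule are left out.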

Additional observations from a re-analysis of the deposited data

How the results depend on the processing

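The call of Bmf held under each planned setting, with log2 changes of 0.65 to 0.85 and adjusted p-values of 3.55e-05 to 0.0130 with a library left out. It was lost with DESeq2 on all genes with its own filter (adjusted p = 0.0626), an alternative chosen after seeing the data, so 0 members were called there, 0 of them higher. With a library left out, 1 to 2 members were called, 1 to 2 higher and 0 to 1 lower. The second was Bbc3 (higher, without sensitive replicate 2) or Bak1 (lower, without sensitive replicate 1), and with a library left out 3 log2 changes crossed 0, those of Bbc3 (-0.077 to 0.31), Bax (-0.012 to 0.036) and Bak1 (-0.22 to 0.0042). Over all genes, 445 were called, against 270 to 1381 with a library left out, 208 with DESeq2 and 202 with DESeq2 on all genes, and in the pathway lists 10 were called, against 7 to 25 with a library left out and 6 with DESeq2 on all genes. The cause was not tested. The samples share only a replicate number. The correlation of deviations of same-numbered libraries over genes was -0.02, and with a replicate block 1 member was called (Bmf, log2 change 0.76, adjusted p = 5.20e-06) and 595 genes in all. The libraries of a pair differed beyond sampling noise, with a chi-square per degree of freedom of 1.79 in resistant and 4.05 in sensitive cells. Depth limits Bik and, with the widest interval among tested members, Bad.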
